A study of Saccharomyces cerevisiae and Kluyveromyces lactis with 95 samples.

Results

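Transcripts of the aminoacyl-tRNA synthetases were followed through inhibition of protein kinase A (PKA) in the budding yeasts *Kluyveromyces lactis* and *Saccharomyces cerevisiae*. The members were the 34 *S. cerevisiae* genes of a fixed list of synthetase names, out of 6600 genes in the count table, and their orthologs in *K. lactis*, 33 of 5534 genes. In *S. cerevisiae* 20 members encode cytosolic enzymes and 14 encode enzymes made only for the mitochondrion. In *K. lactis* 19 genes were cytosolic, 13 were mitochondrial, and 1 gene (KLLA0A07040g) was the ortholog of both the cytosolic arginyl enzyme YDR341C and the mitochondrial arginyl enzyme MSR1.

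A synthetase joins 1 kind of amino acid to its matching tRNAs, so that the ribosome can read a codon as that amino acid. Yeast cells make proteins both in the cytosol, with tRNAs from the nucleus, and in the mitochondrion, with tRNAs from the mitochondrial genome. For most amino acids a separate nuclear gene encodes the enzyme that is imported into the mitochondrion. For others 1 gene gives both forms from alternative starts, and ALA1, GRS1, HTS1 and VAS1, which were counted here as cytosolic, are the 4 such members. Counts at the 3′ end of mRNA do not tell the forms apart, so the mitochondrial form of these members has no value of its own. The mitochondrial ribosome makes a handful of subunits of the respiratory chain, so its synthetases serve respiration. The cytosolic enzymes serve growth along with the ribosomes, and the transcription factor Gcn4 is known to activate many amino acid biosynthesis and synthetase genes in *S. cerevisiae* when amino acids run short. PKA is active in cells growing on glucose, where it promotes growth and restrains the stress response, in *S. cerevisiae* by keeping the paralogous activators Msn2 and Msn4 in the cytoplasm.

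PKA-AS strains carried analog-sensitive PKA, altered by gatekeeper mutations so that the bulky compound 1-NM-PP1 blocks the kinase. PKA-WT strains carried the unmutated kinase and show what the compound does without that allele. Each culture grew exponentially in YPD at 30 °C and was then divided between 3 uM 1-NM-PP1 and the solvent DMSO for 50 min. In *K. lactis* PKA-AS cells there were 4 cultures of each treatment with no deletion, with the single ortholog of MSN2 and MSN4 deleted (ΔMsn2/4) and with the single ortholog of RPH1 and GIS1 deleted (ΔRph1/Gis1), and 3 of each with both deleted. *K. lactis* PKA-WT cells, with no deletion only, gave 3 treated cultures and 2 controls. In *S. cerevisiae* PKA-AS cells with no deletion, with MSN2 and MSN4 deleted, with RPH1 and GIS1 deleted and with all 4 deleted gave 4 cultures of each treatment, and PKA-WT cells of the same 4 kinds gave 3 of each. Rph1 and Gis1 are paralogous zinc-finger factors that act on nutrient-response genes. Besides the kinase alleles, *S. cerevisiae* PKA-AS cells expressed the chromatin protein Nhp6a with a fluorescent tag. The labels name no independent clones, so cultures of a group are repeat cultures of a strain. Culture number 2017, which the labels do not explain, occurred in both species and only in PKA-AS cells with no deletion. Comparisons of these cells with other strains therefore set partly different culture numbers side by side.

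Libraries were tagged at the 3′ end of mRNA, and they held 815372 to 4117520 counts on genes in the 35 *K. lactis* libraries and 188289 to 4715139 in 59 *S. cerevisiae* libraries, which came from 56 cultures. Levels are given as CPM, counts scaled to a common library size by the trimmed mean of M values (TMM). A level is a share of the library, so less transcript of a gene per cell and more of other transcripts cannot be told apart. GRS1, for the cytosolic glycyl enzyme, and the gene YBR121C-A that overlaps it were listed at 0 in all 56 *S. cerevisiae* cultures. GRS1 was therefore not tested there, although the *K. lactis* gene was counted, and the cause of the zeros was not tested. The deleted genes bear on the labels only in part. Tags at the 3′ end can lie outside a deleted stretch, and the cause of the counts left in deleted strains was not tested. MSN2 was at a median of 0.594 CPM in the 28 *S. cerevisiae* cultures without it (0 to 3.62) and 3.43 CPM in the 28 with it (0.493 to 11.9), while RPH1 was listed at 0 in every culture. MSN4 was at 3.84 CPM (0 to 19.6) without it and 18.9 CPM (5.02 to 65.5) with it, and GIS1 at 2.17 CPM (0 to 8.43) without it and 3.02 CPM (0 to 29.98) with it, and the ranges of all 3 counted genes overlapped. The *K. lactis* MSN2/MSN4 ortholog was at 1.99 CPM (0 to 10.2) in the 14 cultures without it and 10.1 CPM (2.26 to 30.0) in the 21 with it, and the RPH1/GIS1 ortholog at 5.61 CPM (3.58 to 14.3) without it and 12.9 CPM (8.28 to 19.996) with it.

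The *S. cerevisiae* cultures numbered 1 stood apart in a set of members. Of the 16 groups of a strain and a treatment, culture 1 was the highest in 15 for ALA1 (alanyl) and MES1 (methionyl), and in 14 for FRS1 (the beta subunit of the phenylalanyl enzyme) and DPS1 (aspartyl). Over the groups, its median ratio to the other cultures was 5.42 for FRS1, 3.77 for ALA1, 3.21 for DPS1 and 2.92 for MES1. The mitochondrial MSW1 (tryptophanyl) and DIA4 (seryl) went the other way, at ratios of 0.452 and 0.438. Both treatments of a culture shared the difference. PKA-WT cells were an exception in DMSO: culture 2 without RPH1 and GIS1 was high as well, and culture 1 with all 4 factors deleted was low. In *S. cerevisiae* 7 of 33 members were more than 2-fold apart in this way, against 12.3% of all genes tested, while in *K. lactis* 1 of 33 members (KRS1) and 2.79% of genes were. Its cause was not tested. Results that rest on culture 1 are given with and without it.

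**Figure D1:**
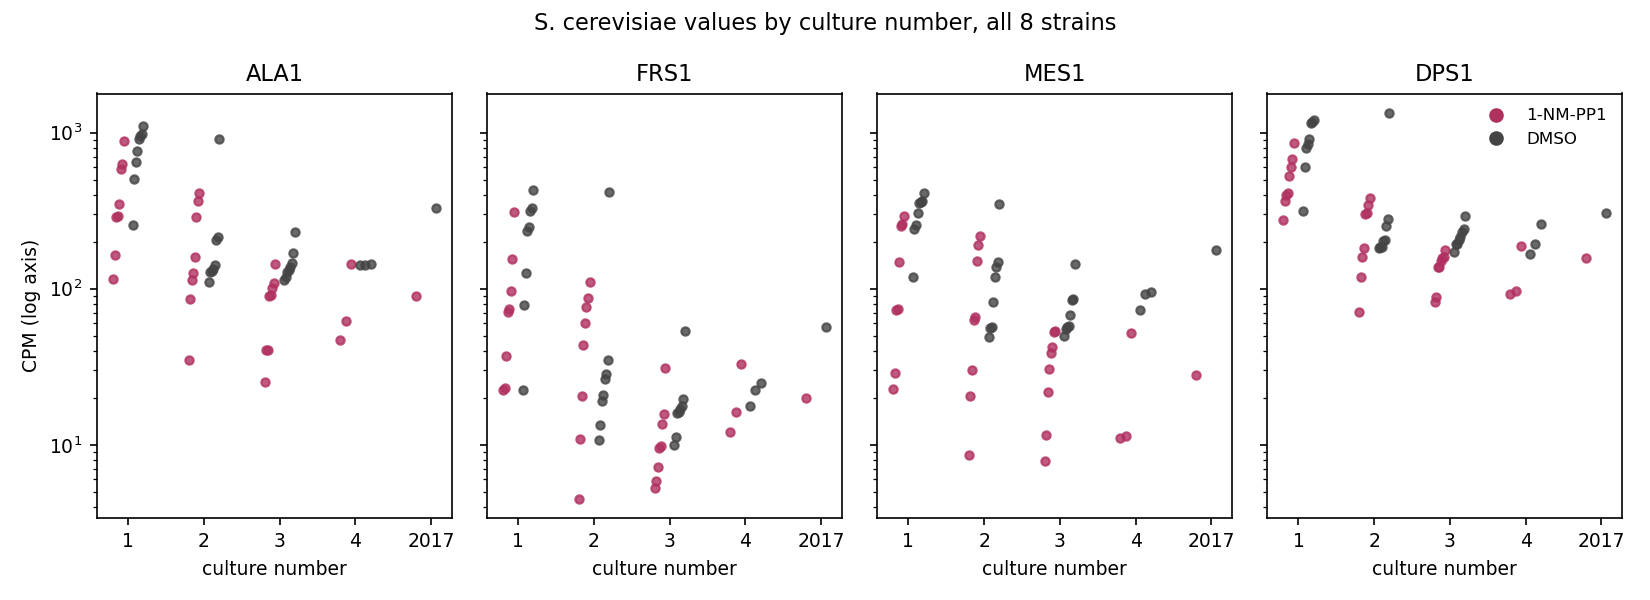
Levels of ALA1, FRS1, MES1 and DPS1 in *S. cerevisiae* (CPM, log axis) by culture number, over all 8 strains, with 1-NM-PP1 in red and DMSO in grey. Points of culture 1 lie mostly above those of the other cultures in both treatments, at median ratios of 2.92 to 5.42.

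In *K. lactis* PKA-AS cells most cytosolic synthetases were lower with 1-NM-PP1, and some of the mitochondrial ones with them. In PKA-WT cells, which are described further on, the fitted changes of all 19 cytosolic members were negative as well, and the difference between PKA-AS and PKA-WT cells was called in 1 cytosolic and 0 mitochondrial members (DESeq2 also called 0 mitochondrial). In PKA-AS cells with no deletion, 18 of 19 cytosolic members fell with 1-NM-PP1 against DMSO, by a class median log2 fold change (LFC) of -1.61, and 6 of 13 mitochondrial members fell, with a class median of -1.25. The median over all 5271 genes tested was -0.042. A member was called where edgeR's quasi-likelihood test gave an adjusted p below 0.01 over all genes, at which 24.1% of genes were called lower and 21.1% higher. The cytosolic members together came to 1686 ± 194 CPM with 1-NM-PP1 and 5032 ± 716 CPM with DMSO (SD, n = 4 each). The mitochondrial members came to 418 ± 106 CPM with 1-NM-PP1 and 658 ± 95.0 CPM with DMSO.

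The prolyl enzyme gene YHR020W (KLLA0A08448g) had 11.1, 12.4, 8.49 and 9.77 CPM with 1-NM-PP1 in cultures 1, 2, 3 and 2017, against 58.0, 67.0, 67.0 and 76.9 CPM with DMSO. All treated cultures were far below all control cultures, and the LFC was -2.68 (SE 0.25, adjusted p = 1.70e-10). FRS2 (KLLA0F25234g), the alpha subunit of the phenylalanyl enzyme, had 92.1, 69.8, 129 and 213 CPM with 1-NM-PP1 and 1195, 631, 468 and 693 CPM with DMSO, an LFC of -2.57 (SE 0.43, adjusted p = 7.08e-06). Its partner subunit gene FRS1 fell by an LFC of -2.46, so both subunits were lower. KRS1 (KLLA0F18392g), the lysyl enzyme, had 8.88, 12.7, 10.6 and 31.9 CPM with 1-NM-PP1 and 205, 93.4, 22.6 and 101 CPM with DMSO. Its LFC was as large, at -2.67 (SE 0.81, adjusted p = 0.00567), but the control of culture 3 lay below the treated culture 2017, and the call was lost on leaving out any of treated cultures 1, 2 and 3 or control culture 1 (highest adjusted p 0.032).

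The other cytosolic members called lower were WRS1 (tryptophanyl, -2.40), CDC60 (leucyl, -2.34), MES1 (-2.26), TYS1 (tyrosyl, -1.95), DED81 (asparaginyl, -1.90), ILS1 (isoleucyl, -1.61), HTS1 (histidyl, -1.50), ALA1 (-1.50), VAS1 (valyl, -1.47), GRS1 (-1.44), GLN4 (glutaminyl, -1.43), SES1 (seryl, -1.42), GUS1 (glutamyl, -1.11) and DPS1 (-1.01). The smallest change among these was in DPS1 (KLLA0D03839g), with 203, 240.2, 156 and 199 CPM after 1-NM-PP1 and 456, 366, 424 and 359.9 CPM after DMSO, and its groups did not overlap. The threonyl gene THS1 (KLLA0F05918g) was the cytosolic member not called, at an LFC of -1.02 (adjusted p = 0.109). It had 531, 492, 298 and 297 CPM with 1-NM-PP1 and 593, 945, 953 and 791 CPM with DMSO, so the groups were apart while the size of the change varied between cultures. In all, 7 cytosolic members passed an LFC of -2, and the groups did not overlap in 17 of 19, where 25.8% of all genes had every treated culture below every control and 23.1% had every treated culture above.

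The mitochondrial members called lower in *K. lactis* were MSF1 (phenylalanyl), DIA4 (seryl), MSY1 (tyrosyl), SLM5 (asparaginyl, -1.70), NAM2 (leucyl, -1.52) and AIM10 (prolyl, -0.92). MSF1 (KLLA0B12177g) had 4.996, 2.54, 2.83 and 10.5 CPM with 1-NM-PP1 and 38.4, 21.5, 14.3 and 40.4 CPM with DMSO, an LFC of -2.37 (SE 0.50, adjusted p = 0.000158). DIA4 (KLLA0E03433g) had 6.11, 2.91, 5.66 and 7.21 CPM with 1-NM-PP1 and 25.2, 14.96, 20.3 and 25.8 CPM with DMSO, an LFC of -1.97 (SE 0.33, adjusted p = 5.91e-06). MSY1 (KLLA0E24267g) had 8.88, 7.995, 14.1 and 12.1 CPM with 1-NM-PP1 and 42.2, 35.3, 46.7 and 34.5 CPM with DMSO, an LFC of -1.88 (SE 0.36, adjusted p = 4.24e-05). In these 3 genes every treated culture was below every control, at levels of 2.54 to 46.7 CPM. Over the class this held in 11 of 13 members, where it held in 1359 of all 5271 genes.

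At the other end of the class MSD1 (KLLA0E24465g), for the mitochondrial aspartyl enzyme, had 202, 108, 200.1 and 60.7 CPM with 1-NM-PP1 and 58.0, 55.1, 154 and 45.9 CPM with DMSO. It was higher with 1-NM-PP1 within each of the 4 cultures, but the groups overlapped and the LFC of 0.87 (adjusted p = 0.0372) was not called. ISM1 (KLLA0D11858g), the isoleucyl enzyme, overlapped too, with 109, 63.2, 107 and 44.9 CPM after 1-NM-PP1 and 70.0, 97.6, 203 and 68.9 CPM after DMSO (LFC -0.44, adjusted p = 0.337). MST1 (KLLA0D02772g), for threonine, had 18.9, 23.6, 46.7 and 54.4 CPM with 1-NM-PP1 and 107, 81.4, 60.2 and 92.9 CPM with DMSO, groups that did not overlap, at an LFC of -1.25 (adjusted p = 0.0438) that was not called. The LFCs of MSW1 (-1.58), MSE1 (glutamyl, -0.83), MSK1 (lysyl, -0.80) and MSM1 (methionyl, -0.56) were not called either. The single arginyl gene (KLLA0A07040g) had 409, 201, 434 and 194 CPM with 1-NM-PP1 and 702, 567, 995 and 429 CPM with DMSO, and fell by an LFC of -1.12 (SE 0.33, adjusted p = 0.00457), although treated culture 3 stood above the control of culture 2017. Calls that were lost without the 2017 cultures were those of TYS1 (edgeR's adjusted p 0.0173), AIM10 (0.0217) and the arginyl gene (0.016). AIM10 (0.0251) and the arginyl gene (0.0241) also lost theirs with only the compared groups, and TYS1 (0.0115) and AIM10 (0.0226) with library totals. TYS1 kept its call in 3 of 8 cases when single cultures were left out, and the arginyl gene in 4 of 8. With culture as a block in the fit, MSW1 at -1.48 (adjusted p = 0.00185) and MSK1 at -0.74 (adjusted p = 0.00997) were called lower as well and MSD1 was called higher, at 0.97 (adjusted p = 0.000998). Within cultures, 19 of 19 cytosolic members and 11 of 13 mitochondrial members were lower with 1-NM-PP1 in all 4, as were 35.2% of all genes, while 33.1% of genes were higher in all 4.

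In *S. cerevisiae* PKA-AS cells most cytosolic synthetases were lower with 1-NM-PP1 and some of the mitochondrial ones were higher. In PKA-AS cells with no deletion, 16 of 19 cytosolic members tested fell, by a class median LFC of -2.46, and 6 of 14 mitochondrial members rose, with a class median of 0.98. The median over all 5779 genes tested was 0.0046, and 21.2% of genes were called lower and 20.7% higher. The cytosolic members summed to 1991 ± 348 CPM with 1-NM-PP1 and 9705 ± 1093 CPM with DMSO (SD, n = 4 each). The mitochondrial members summed to 1379 ± 169 CPM with 1-NM-PP1 and 590.2 ± 75.7 CPM with DMSO.

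KRS1 (YDR037W), the lysyl enzyme, changed the most, with 42.0, 28.2, 44.6 and 85.1 CPM after 1-NM-PP1 and 1181, 1572, 910.2 and 1192 CPM after DMSO. The highest treated culture was far below the lowest control, and the LFC was -4.60 (SE 0.46, adjusted p = 7.30e-12). YHR020W, for proline, had 32.5, 23.6, 36.3 and 22.3 CPM with 1-NM-PP1 and 671, 446, 683 and 608 CPM with DMSO, an LFC of -4.39 (SE 0.35, adjusted p = 1.10e-14). DED81 (YHR019C), for asparagine, had 68.0, 83.4, 81.9 and 86.2 CPM with 1-NM-PP1 and 483, 1209, 788 and 767 CPM with DMSO, an LFC of -3.34 (SE 0.50, adjusted p = 2.30e-07). THS1 (YIL078W), for threonine, had 141, 122, 115 and 144 CPM with 1-NM-PP1 and 819, 561, 950.2 and 734 CPM with DMSO, an LFC of -2.55 (SE 0.21, adjusted p = 3.60e-14). In these 4 genes the treated and control cultures were far apart, and the spread within a group was small beside the change.

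The further cytosolic members called lower were MES1 (-3.28), WRS1 (-2.83), ILS1 (-2.57), CDC60 (-2.49), YDR341C (-2.46), VAS1 (-2.38), SES1 (-2.33), FRS2 (-2.10), HTS1 (-1.81), GLN4 (-1.62), TYS1 (-1.32) and GUS1 (-0.97). GUS1 (YGL245W), the glutamyl enzyme, had 350.3, 338, 312 and 327 CPM with 1-NM-PP1, a narrow range, and 574, 926, 569 and 528 CPM with DMSO, where culture 2 stood high. Its LFC was -0.97 (SE 0.27, adjusted p = 0.00217), and without that control culture it was -0.75 and not called (adjusted p 0.0232). The members not called were FRS1 at -2.70 (adjusted p = 0.0483), ALA1 at -2.13 (adjusted p = 0.035) and DPS1 at -1.13 (adjusted p = 0.196), and these are 3 of the 4 members that were highest in culture 1. Without the control of culture 1 their LFCs were -1.43, -1.46 and -0.43, and without treated culture 1 they were -3.10, -2.71 and -1.93, none of them called. DPS1 (YLL018C) had 410.3, 70.4, 82.3 and 157 CPM with 1-NM-PP1 and 846, 252, 171 and 306 CPM with DMSO, so that treated culture 1 exceeded 3 of the controls although the level was lower with 1-NM-PP1 within every culture.

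With culture as a block all 19 cytosolic members were called lower, with FRS1 at -2.39 (adjusted p = 0.00258), ALA1 at -2.11 (adjusted p = 4.91e-05) and DPS1 at -1.22 (adjusted p = 0.0012). Without the cultures numbered 1 the count was 15: ALA1 was called, at -2.05 (adjusted p = 0.00947), and HTS1 at -1.78 (adjusted p = 0.0202) and GUS1 at -1.06 (adjusted p = 0.0102) were not. In all, 12 cytosolic members passed an LFC of -2, and the groups did not overlap in 16 of 19, where 25.4% of all genes had every treated culture below every control and 26.0% every treated culture above. All 19 were lower with 1-NM-PP1 within each of the 4 cultures, as were 33.8% of all genes.

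The mitochondrial members called higher in *S. cerevisiae* were DIA4, MST1, MSF1, MSD1 (1.52), AIM10 (1.48) and MSK1 (1.25). MST1 (YKL194C) had 75.5, 37.2, 41.2 and 61.6 CPM with 1-NM-PP1 and 21.0, 14.5, 11.6 and 13.8 CPM with DMSO, an LFC of 1.82 (SE 0.26, adjusted p = 6.49e-08). MSF1 (YPR047W) had 139.9, 207, 158 and 139 CPM with 1-NM-PP1 and 32.6, 46.8, 53.4 and 52.7 CPM with DMSO, an LFC of 1.79 (SE 0.40, adjusted p = 0.000203). DIA4 (YHR011W) had 78.0, 195, 152 and 167 CPM with 1-NM-PP1 and 24.1, 39.9, 51.0 and 50.4 CPM with DMSO, an LFC of 1.84 (SE 0.53, adjusted p = 0.00314), with culture 1 the lowest in both treatments, and it was not called without the 2017 cultures (adjusted p 0.0114). In all 3 every treated culture was above every control.

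No mitochondrial member was called lower in *S. cerevisiae*, and at an unadjusted p below 0.05 none was lower either (DESeq2 called 0 lower and 7 higher). MSW1 (YDR268W), for tryptophan, had 33.5, 83.4, 60.3 and 60.4 CPM with 1-NM-PP1 and 47.6, 56.1, 88.5 and 58.8 CPM with DMSO, groups that overlapped throughout (LFC -0.084, adjusted p = 0.918). MSM1 (YGR171C) had 13.5, 22.6, 23.5 and 38.7 CPM with 1-NM-PP1 and 21.5, 19.1, 20.6 and 24.5 CPM with DMSO (LFC 0.20, adjusted p = 0.535), and ISM1 (YPL040C) had 19.99, 19.1, 17.6 and 19.4 CPM with 1-NM-PP1 and 16.5, 14.5, 18.2 and 16.8 CPM with DMSO (LFC 0.20, adjusted p = 0.564). Neither separated the treatments. MSR1 (YHR091C) had 65.0, 84.5, 66.2 and 71.6 CPM with 1-NM-PP1 and 46.6, 53.2, 53.1 and 50.4 CPM with DMSO: the groups did not overlap, but the LFC of 0.50 (adjusted p = 0.0921) was not called. The LFCs of SLM5 (0.98), MSY1 (0.97), NAM2 (0.88) and MSE1 (0.54) were not called. With culture as a block MSR1 at 0.49 (adjusted p = 0.00546), MSY1 at 1.02 (adjusted p = 0.00119) and SLM5 at 0.94 (adjusted p = 0.00246) were called as well, which made 9 of 14. In 9 of 14 members the level was higher with 1-NM-PP1 within each of the 4 cultures, against 35.0% of all genes. Every treated culture was above every control in 8 of 14, and in 1500 of all 5779 genes.

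**Figure D2:**
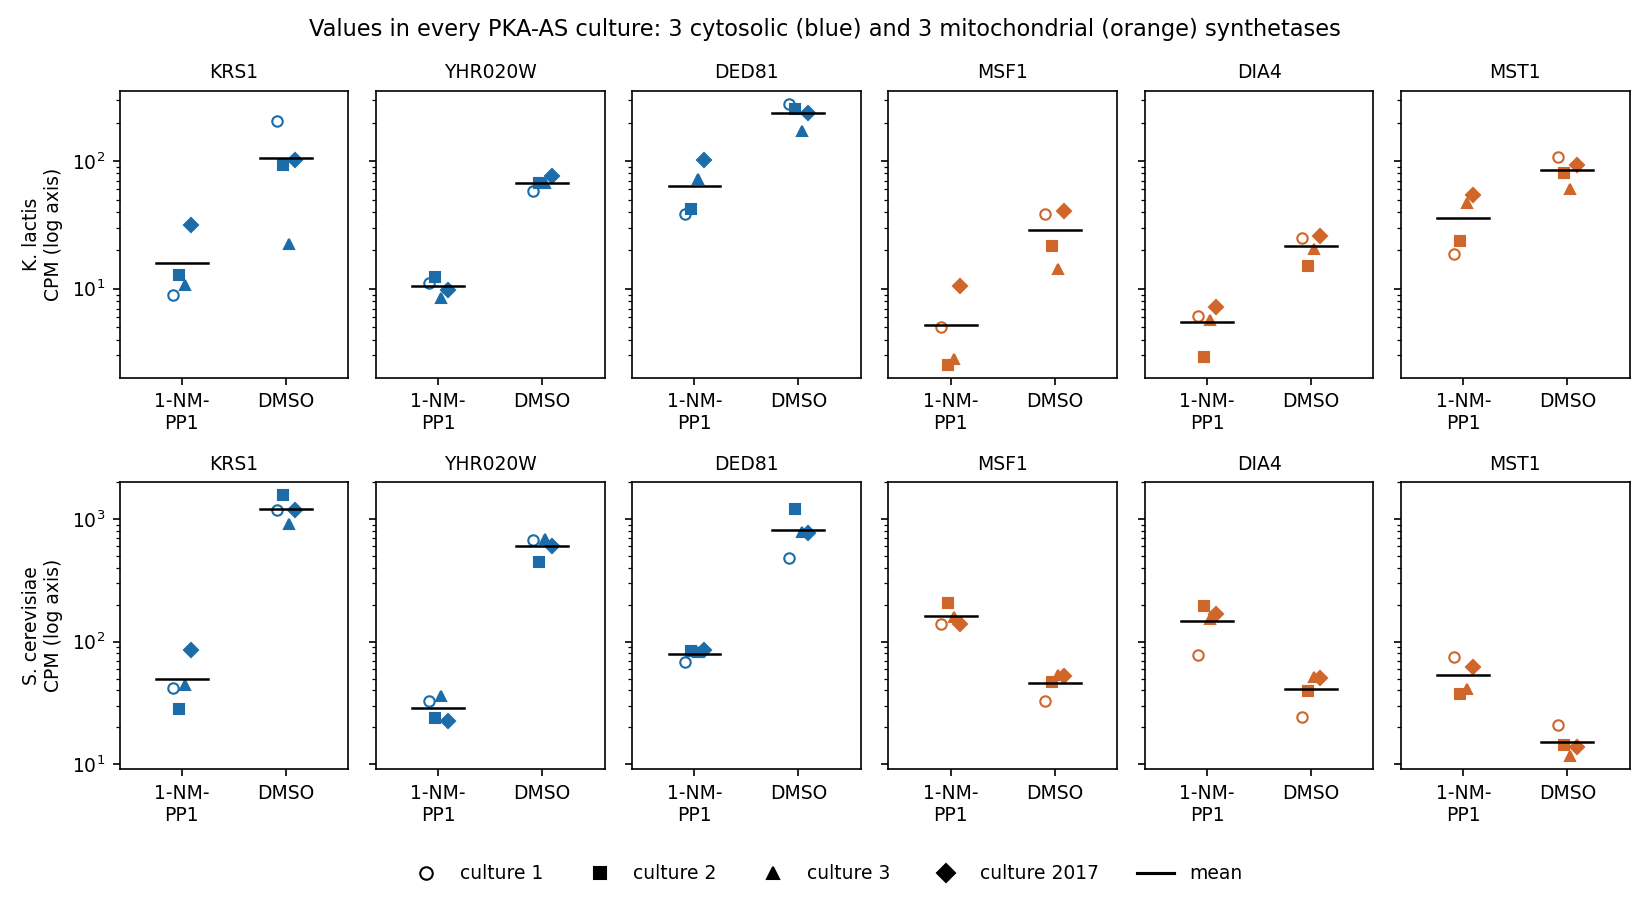
Levels (CPM, log axis) of 3 cytosolic (KRS1, YHR020W, DED81; blue) and 3 mitochondrial (MSF1, DIA4, MST1; orange) synthetases in each PKA-AS culture with no deletion, *K. lactis* above and *S. cerevisiae* below, with symbols for culture number and a line for the mean of 4. The cytosolic genes were lower with 1-NM-PP1 in both species, while of the mitochondrial genes MSF1 and DIA4 were called lower in *K. lactis*, where MST1 was not called, and all 3 were called higher in *S. cerevisiae*, where MST1 reached 37.2 to 75.5 CPM with 1-NM-PP1 and 11.6 to 21.0 CPM with DMSO.

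The promoters of the *S. cerevisiae* members were read from the R64 genome of RefSeq, 300 bases before each start codon, to show which sequences members of a class had in common. The windows were searched on both strands for short cores: TGACTC, bound by Gcn4; AGGGG, the stress response element (STRE) bound by Msn2 and Msn4; and GATGAG (PAC) and AAAATTTT (RRPE), which are frequent before genes of ribosome assembly. RRPE was in 12 of 20 cytosolic promoters (60%), in 0 of 14 mitochondrial ones and in 9.42% of all 6001 promoters. The Gcn4 core was in 8 of 20 cytosolic promoters (40%), 1 of 14 mitochondrial ones (7.14%) and 7.77% of all. STRE was in 1 of 20 cytosolic (5%), 4 of 14 mitochondrial (28.6%) and 22.2% of all promoters, and PAC was in 4 of 20 (20%), 1 of 14 (7.14%) and 19.1%. Neighbouring cores can share letters, up to 3 between PAC and the Gcn4 core, and a match is a description of the window only. Both the RRPE and the Gcn4 core stood before 6 cytosolic genes (30%): ILS1, DED81, THS1, VAS1, YDR341C and YHR020W, against 38 of all promoters (0.633%). DED81 and YHR020W are neighbours on chromosome VIII that run apart from a shared stretch of 437 bases (chrVIII:143559-143995), so their windows overlap. The same RRPE site and the same Gcn4 site were counted for both genes in the shares above. Promoters of HTS1, CDC60, MES1, DPS1, GLN4 and GUS1 held neither core. Their LFCs in PKA-AS cells with no deletion ran from -3.28 (MES1) to -0.97 (GUS1). Genes with both cores included ILS1 at -2.57 and YDR341C at -2.46, so the LFCs of these sets overlapped. Whether a core bears on the change was not tested.

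The stretches of ILS1, THS1, VAS1, YDR341C and YHR020W carry both cores, the last of them in the stretch shared with DED81, and KRS1, the member with the largest change, is shown for its single Gcn4 core. They are written 5′ to 3′ on the strand of the gene, with the cores in capitals: AAAATTTT for RRPE, TGACTC or its other-strand form GAGTCA for Gcn4, and CTCATC for PAC on the other strand. MSR1 is shown for contrast: it arose from the same ancestral gene as YDR341C, its stretch lies at the same distance from the start codon (215 to 103 bases before it), and it holds none of the cores.
ILS1, chrII:84343-84431, minus strand: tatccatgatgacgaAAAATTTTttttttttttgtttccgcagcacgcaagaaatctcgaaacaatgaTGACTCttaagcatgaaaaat
THS1, chrIX:212280-212369, plus strand: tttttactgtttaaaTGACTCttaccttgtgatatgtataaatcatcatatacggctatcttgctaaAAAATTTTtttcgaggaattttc
VAS1, chrVII:672058-672108, plus strand: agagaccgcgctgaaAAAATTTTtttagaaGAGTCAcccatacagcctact
YDR341C, chrIV:1153729-1153841, minus strand: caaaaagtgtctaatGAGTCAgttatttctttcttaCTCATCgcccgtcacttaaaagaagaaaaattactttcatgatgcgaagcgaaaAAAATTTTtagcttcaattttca
YHR020W, chrVIII:143720-143834, plus strand: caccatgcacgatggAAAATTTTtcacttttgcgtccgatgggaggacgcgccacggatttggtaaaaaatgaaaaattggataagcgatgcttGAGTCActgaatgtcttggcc
KRS1, chrIV:525291-525326, plus strand: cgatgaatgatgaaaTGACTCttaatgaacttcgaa
MSR1, chrVIII:286873-286985, minus strand: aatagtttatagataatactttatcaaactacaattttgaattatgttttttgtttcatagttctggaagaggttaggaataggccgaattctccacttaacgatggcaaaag

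YDR341C and MSR1 show the split between the classes within 1 ohnolog pair, the pair of copies left from the whole-genome duplication in the *S. cerevisiae* lineage. YDR341C had 105, 62.8, 78.4 and 81.5 CPM with 1-NM-PP1 and 528, 524, 327 and 431 CPM with DMSO, and fell by an LFC of -2.46 (SE 0.33, adjusted p = 2.03e-08), while MSR1 was at 0.50 and not called. The unduplicated *K. lactis* gene fell by an LFC of -1.12.

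Setting each cytosolic enzyme beside the mitochondrial enzyme of the same amino acid gave 13 pairs in *K. lactis* and 14 in *S. cerevisiae*. In *K. lactis* the cytosolic LFC was below the mitochondrial one in 11 of 13 pairs, with a median difference of -0.82 and a range from -1.88 for aspartate to 0.56 for serine. The exceptions were serine and threonine (0.23). In *S. cerevisiae* it was below in 14 of 14 pairs, with a median difference of -3.42 and a range from -5.87 for proline (YHR020W against AIM10) to -1.51 for glutamate (GUS1 against MSE1). For phenylalanine FRS2 and MSF1 had LFCs of -2.57 and -2.37 in *K. lactis*, and -2.10 and 1.79 in *S. cerevisiae*. For tyrosine TYS1 and MSY1 had -1.95 and -1.88 in *K. lactis*, and -1.32 and 0.97 in *S. cerevisiae*. Both pairs were among the closest in *K. lactis*, at differences of -0.19 and -0.07. The widest there were aspartate, with DPS1 at -1.01 and MSD1 at 0.87, and lysine, with KRS1 at -2.67 and MSK1 at -0.80. In *S. cerevisiae* these had -1.13 and 1.52, and -4.60 and 1.25. Pairs are described without a test, since the LFCs of a pair come from the same libraries.

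**Figure D3:**
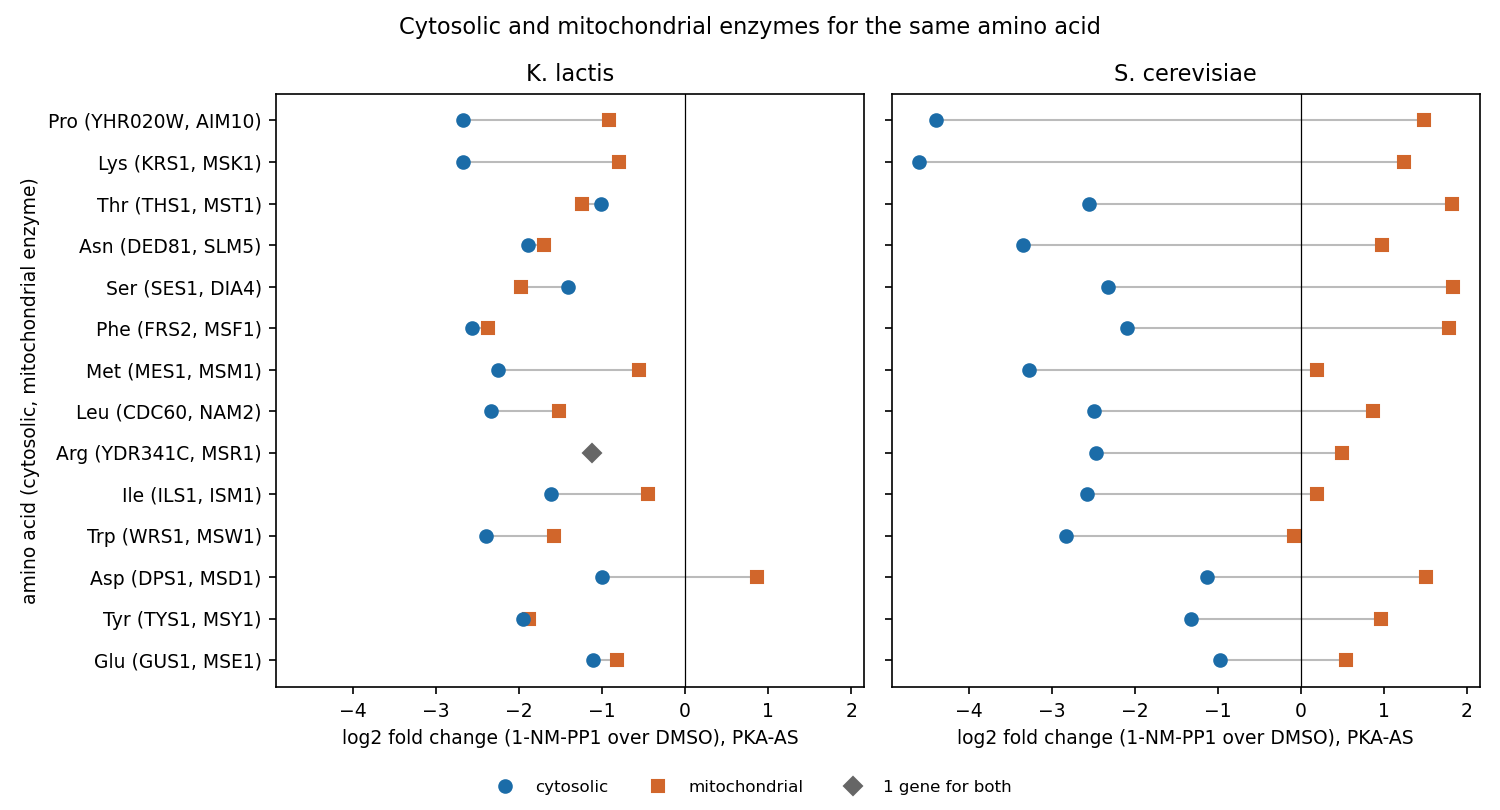
LFC with 1-NM-PP1 over DMSO in PKA-AS cells for cytosolic (circles) and mitochondrial (squares) synthetases of the same amino acid, joined by a line, *K. lactis* left and *S. cerevisiae* right; the diamond is the single *K. lactis* arginyl gene. The symbols stood closer in *K. lactis* (median difference -0.82, range -1.88 to 0.56) than in *S. cerevisiae* (median difference -3.42). In *S. cerevisiae* they lay on opposite sides of 0 for 13 amino acids.

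The species difference was tested directly, as the effect of 1-NM-PP1 in *K. lactis* minus its effect in *S. cerevisiae*, in a joint edgeR fit of 4807 ortholog pairs. Of the mitochondrial class 9 of 14 members were called lower in *K. lactis*, where 15.1% of pairs were called lower and 10.6% higher, and 14 of 14 were negative, from -4.15 to -0.64 with a median of -2.22. The median over all pairs was -0.058. The largest were MSF1 at -4.15 (SE 0.52, adjusted p = 3.98e-06), DIA4 at -3.81 (SE 0.47, adjusted p = 3.27e-06) and MST1 at -3.07 (SE 0.47, adjusted p = 3.78e-05), whose per-culture values are given above. They were followed by MSY1 (-2.86), SLM5 (-2.68), AIM10 and NAM2 (both -2.40), MSK1 (-2.05) and MSR1 (-1.62), the last set against the single *K. lactis* arginyl gene. MSW1 (-1.50, adjusted p = 0.0122), MSE1 (-1.39, adjusted p = 0.041), MSM1 (-0.75), MSD1 (-0.64) and ISM1 (-0.64) were not called.

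Among the cytosolic members 2 of 19 differed between the species, a share near that of all pairs called higher (510 of 4807). Both had the smaller decrease in *K. lactis*: YHR020W at 1.71 (SE 0.33, adjusted p = 0.000398) and THS1 at 1.53 (SE 0.38, adjusted p = 0.00368). For THS1 the values stand above as an uncalled LFC of -1.02 in *K. lactis* and a called one of -2.55 in *S. cerevisiae*. KRS1 had a larger but less certain difference, 1.93 (adjusted p = 0.0365), and DED81 (1.45, adjusted p = 0.0147) and YDR341C (1.34, adjusted p = 0.025) were not called. The class median was 0.63 and 16 of 19 differences were positive. With TMM factors from the joint table in place of factors from each species, the median of all pairs moved to 0.17, the split over all pairs became 653 higher and 606 lower, against 510 and 724, and 4 cytosolic members were called higher. The fit with culture as a block also called 4 cytosolic members higher, MES1 (1.08, adjusted p = 0.00897) and YDR341C (1.31, adjusted p = 0.00236) being added, and 11 mitochondrial members were called lower. Without the *S. cerevisiae* cultures numbered 1 the counts were 2 and 9, with MSW1 called and MSR1 not (-1.63, adjusted p = 0.0119). Without the 2017 cultures 7 mitochondrial members were called lower, NAM2 (edgeR's adjusted p 0.0232) and MSR1 (0.0152) being lost, and THS1 was not called (0.0115). MSR1 was not called with joint TMM factors either (0.0111).

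**Figure D4:**
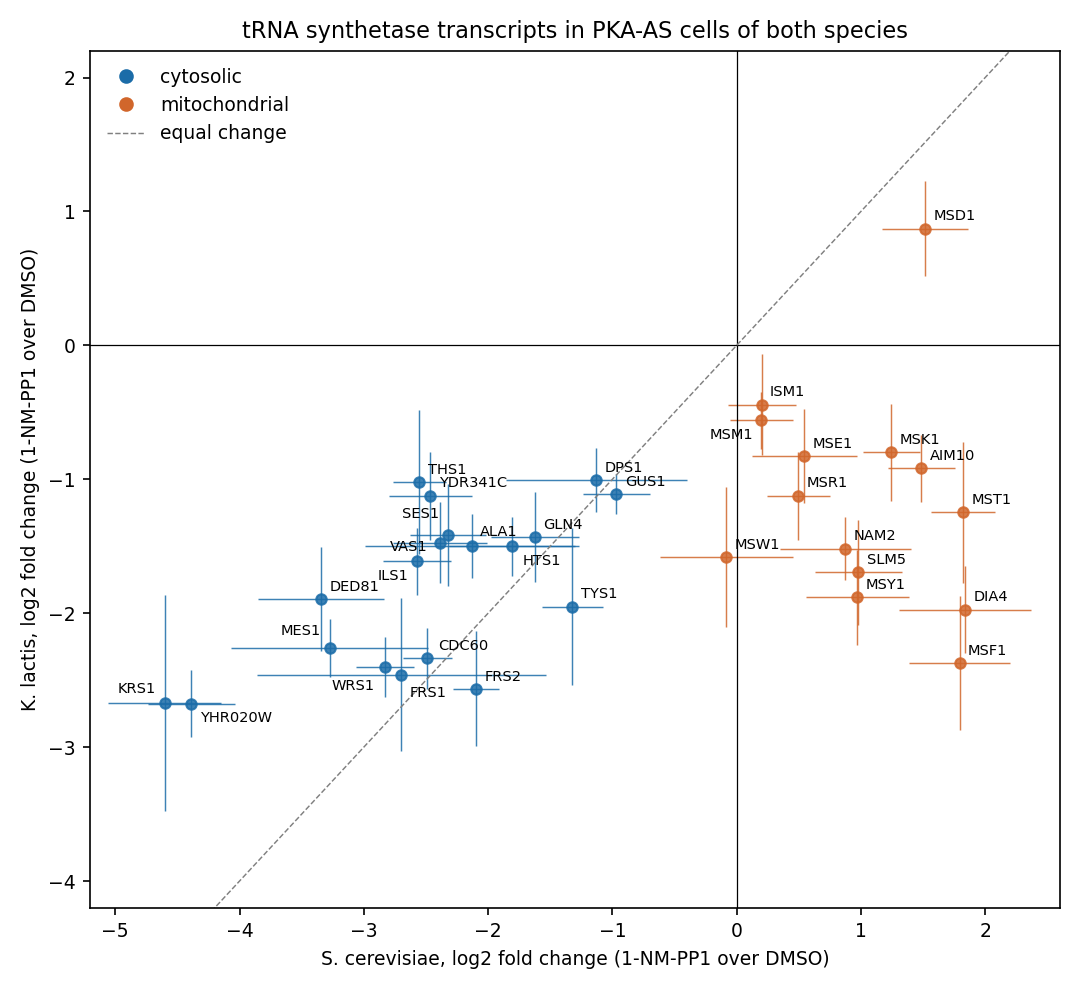
LFC with 1-NM-PP1 over DMSO in PKA-AS cells of *K. lactis* (vertical) and *S. cerevisiae* (horizontal) for each synthetase, with SEs as bars and the line of equal change dashed; YDR341C and MSR1 share the value of their 1 *K. lactis* gene. Cytosolic members (blue) lie at negative values on both axes, and 12 of 14 mitochondrial members (orange) lie below 0 in *K. lactis* and above 0 in *S. cerevisiae*.

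PKA-WT cells showed what the compound did without the analog-sensitive allele. In *K. lactis* PKA-WT cells 4 of 19 cytosolic members fell with 1-NM-PP1, where 3.72% of genes were called lower, and 0 of 13 mitochondrial members were called. YHR020W had 31.5, 31.7 and 17.8 CPM in the 3 treated cultures and 108 and 111 CPM in the 2 controls, an LFC of -2.03 (SE 0.29, adjusted p = 5.33e-05). MES1 had 149, 157 and 146 CPM with 1-NM-PP1 and 298 and 414 CPM with DMSO (-1.24, adjusted p = 0.00207). ILS1 was at -1.26 (adjusted p = 0.00671) and CDC60 at -1.19 (adjusted p = 0.00404). All 19 cytosolic LFCs were negative, with a median of -0.99 (13 at an unadjusted p below 0.05), and the class came to 2883 ± 327 CPM with 1-NM-PP1 (SD, n = 3) and 6077 ± 214 CPM with DMSO (SD, n = 2). The mitochondrial class came to 480 ± 81.8 CPM with 1-NM-PP1 and 525 ± 26.4 CPM with DMSO, with a median LFC of -0.23 (3 at an unadjusted p below 0.05, and 1 called by DESeq2). With library totals in place of TMM the median of all genes moved to 0.21, the split of calls became 147 higher and 54 lower, against 128 and 196, and only YHR020W of the 4 stayed called. When only the 5 PKA-WT cultures entered the fit, none of the 4 was called (adjusted p 0.0514 to 0.0951).

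In *S. cerevisiae* PKA-WT cells 0 of 33 members were called, where 0.138% of genes were called in either direction. DESeq2 also called 0, and 3 members had an unadjusted p below 0.05 in edgeR: KRS1 (LFC -1.08), ILS1 (-0.71) and ISM1 (-0.66). KRS1 had 791, 839 and 391 CPM with 1-NM-PP1 and 1178, 1636 and 1462 CPM with DMSO. The cytosolic class came to 7420 ± 1659 CPM with 1-NM-PP1 and 10931 ± 952 CPM with DMSO, and the mitochondrial class to 659 ± 204 CPM and 548 ± 125 CPM (SD, n = 3 each). The class medians were -0.51 and -0.14. In PKA-WT cells with MSN2 and MSN4, RPH1 and GIS1 or all 4 deleted no member was called either, by edgeR or DESeq2, where 0.242%, 0.138% and 0.675% of genes were called, and 2, 3 and 8 members had an unadjusted p below 0.05 in edgeR. The block added 1 cytosolic and 1 mitochondrial member, called lower with all 4 deleted.

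The effect of 1-NM-PP1 in PKA-AS cells minus its effect in PKA-WT cells was tested within each species, on the same cultures as the comparisons above. In *K. lactis* 1 of 19 cytosolic members was called lower, where 7.97% of genes were: WRS1, at -1.65 (SE 0.36, adjusted p = 0.00114), which was -1.36 and not called without PKA-WT control culture 2 (adjusted p 0.0354). The class median was -0.73, with 8 members at an unadjusted p below 0.05. No mitochondrial member was called (0 in edgeR, 4 at an unadjusted p below 0.05, 0 with DESeq2), and the class median was -0.999. With library totals the split over all genes became 109 higher and 454 lower, against 179 and 420. In *S. cerevisiae* 12 of 19 cytosolic members were called lower, where 13.6% of genes were called lower and 10.0% higher, with a class median of -1.94. They were YHR020W (-3.72), KRS1 (-3.52), DED81 (-2.92), THS1 (-2.57), CDC60 (-2.47), WRS1 (-2.43), VAS1 (-2.37), FRS2 (-1.95), GLN4 (-1.94), SES1 (-1.90), ILS1 (-1.87) and YDR341C (-1.77). ILS1 was not called without the cultures numbered 1 (adjusted p 0.0129), and DED81, GLN4 and YDR341C each lost the call without single cultures. MST1 (2.06) and AIM10 (1.71) were called higher, 2 of 14 mitochondrial members with a class median of 1.06, and with culture as a block 5 were.

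The deletion strains show how the response stood without the transcription factors. In *K. lactis* PKA-AS cells 16 of 19 cytosolic members fell with 1-NM-PP1 in ΔMsn2/4 cells, where 22.7% of genes were called lower, 15 in ΔRph1/Gis1 cells (22.8%) and 13 in cells without either ortholog (19.6%), with class medians of -1.62, -1.48 and -1.67. The mitochondrial class had 7, 8 and 6 of 13 members called lower in those strains, with medians of -1.13, -1.23 and -1.0002, and the arginyl gene fell in each (-1.65, -1.16 and -1.25). YHR020W had 10.4, 12.6 and 10.4 CPM with 1-NM-PP1 in cells without either ortholog and 56.0, 101 and 54.5 CPM with DMSO, and both ranges overlap those of cells with no deletion. Tests of the effect in each deletion strain minus the effect with no deletion called no member, where 0.0379%, 0.360% and 1.04% of genes were called in ΔMsn2/4, ΔRph1/Gis1 and both-deleted cells. DESeq2 called 0 as well, and 1 cytosolic member in ΔMsn2/4 had an unadjusted p below 0.05. The medians of these differences were 0.28, 0.11 and 0.33 for cytosolic and 0.059, -0.090 and 0.15 for mitochondrial members.

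In *S. cerevisiae* ΔMsn2/4 cells 13 of 19 cytosolic members fell, where 12.0% of genes were called lower and 8.69% higher, with a median LFC of -1.52, and 3 of 14 mitochondrial members rose (DIA4 1.81, MST1 1.30, AIM10 0.98; class median 0.72). The cytosolic class came to 3497 ± 712 CPM with 1-NM-PP1 and 9679 ± 1117 CPM with DMSO, and the mitochondrial class to 1048 ± 397 CPM and 606 ± 123 CPM (SD, n = 4 each). In ΔRph1/Gis1 cells 14 cytosolic members fell, where 20.5% of genes were called lower and 19.8% higher, with a median of -2.41, and 5 mitochondrial members rose (NAM2, AIM10, MSD1, MSK1 and MST1, 1.65 to 0.76; class median 0.82). With all 4 factors deleted 12 cytosolic members fell, where 11.8% of genes were called lower and 6.90% higher, with a median of -1.36, and 1 mitochondrial member rose (AIM10, 1.08; class median 0.38). In that strain the classes came to 3765 ± 465 and 796 ± 68.3 CPM with 1-NM-PP1, against 8825 ± 930 and 732 ± 125 CPM with DMSO. With library totals in place of TMM the median of all genes moved to 0.52 in ΔMsn2/4 cells, with 1055 genes higher and 459 lower against 502 and 692, and to 0.42 with all 4 deleted, with 1020 and 484 against 399 and 684. In ΔMsn2/4 cells 10 cytosolic members were then called lower and 5 mitochondrial members higher, and with all 4 deleted 11 and 5. The block raised the mitochondrial members called higher to 6, 10 and 4 in the ΔMsn2/4, ΔRph1/Gis1 and all-4-deleted strains, with 1 called lower in ΔRph1/Gis1. Without the cultures numbered 1 the ΔMsn2/4 counts were 10 cytosolic lower and 2 mitochondrial higher, and with all 4 deleted 11 and 2.

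The difference between strains was tested as the effect of 1-NM-PP1 in the deletion strain minus its effect with no deletion. Over all genes the median absolute LFC with 1-NM-PP1 was 1.02 with no deletion, 0.61 in ΔMsn2/4 cells and 0.64 with all 4 deleted. A weaker response in these deletion strains was therefore not particular to the synthetases. In ΔMsn2/4 cells 4 cytosolic members had a smaller decrease, where 5.05% of genes were called higher and 3.51% lower: KRS1 at 2.52 (SE 0.57, adjusted p = 0.00116), FRS2 at 1.21, CDC60 at 1.16 and WRS1 at 1.14. KRS1 had 324, 445, 123 and 151 CPM with 1-NM-PP1 in ΔMsn2/4 cultures 1, 2, 3 and 4 and 1044, 1229, 701 and 1485 CPM with DMSO, so that its controls overlapped those with no deletion while all of its treated cultures were above all of theirs. MSK1, the mitochondrial lysyl enzyme, had 83.2, 91.4, 83.2 and 105 CPM with 1-NM-PP1 and 75.1, 88.4, 103 and 105 CPM with DMSO in ΔMsn2/4 cells, and was the mitochondrial member called lower, at -1.27 (SE 0.33, adjusted p = 0.00512). The class medians of the difference were 0.97 for cytosolic and -0.25 for mitochondrial members, and with library totals, which moved the median of all genes to 0.40 and the split to 445 higher and 111 lower against 292 and 203, they were 1.34 and 0.12, the mitochondrial one with its sign turned. Without the cultures numbered 1 the only cytosolic call was FRS2, since KRS1 was at 2.38 (adjusted p = 0.0369), CDC60 at 1.24 (adjusted p = 0.0127) and WRS1 at 1.00 (adjusted p = 0.029). With culture as a block 8 cytosolic members were called higher, and MSK1 and MSD1 lower. With library totals MSK1 was at -0.91 and not called (adjusted p 0.0933 in edgeR). When only the compared groups entered the fit, FRS2 (0.0159), CDC60 (0.019) and WRS1 (0.0416) were not called, and WRS1 was not without the 2017 cultures (0.0111).

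With all 4 factors deleted the effect was smaller than with no deletion in 5 cytosolic members, where 6.90% of genes were called higher and 7.75% lower: KRS1 at 3.23 (SE 0.57, adjusted p = 2.65e-05), YHR020W at 1.81, ILS1 at 1.36, WRS1 at 1.25 and FRS2 at 1.08. KRS1 had 316, 318, 342 and 487 CPM with 1-NM-PP1 and 1076, 814, 595 and 1308 CPM with DMSO. YHR020W had 88.8, 84.3, 93.9 and 118 CPM with 1-NM-PP1 and 652, 598, 394 and 654 CPM with DMSO. Both were still lower with 1-NM-PP1 in every culture, but by less than in cells with no deletion. Among the mitochondrial members MSF1 was called lower at -2.12 (SE 0.56, adjusted p = 0.00398), with 64.6, 110.0, 79.0 and 83.1 CPM after 1-NM-PP1 and 69.0, 119, 136 and 95.7 CPM after DMSO, and MST1 at -1.44 (SE 0.35, adjusted p = 0.00198), with 48.3, 34.1, 35.8 and 32.6 CPM and 33.0, 31.0, 29.9 and 21.9 CPM. Each treated culture was below its own control for MSF1 and above it for MST1, although the MST1 groups overlapped. In DMSO every culture with all 4 deleted was above every undeleted culture for both genes, without a call, while with 1-NM-PP1 every such culture was below every undeleted one for MSF1 and the ranges overlapped for MST1. The class medians of the difference were 1.09 and -0.50. With culture as a block 10 cytosolic members were called higher and 4 mitochondrial members lower, and without the cultures numbered 1 the counts were 4 and 3, with SES1 and MSD1 added and ILS1 at 1.30 (adjusted p = 0.0392) and FRS2 at 1.05 (adjusted p = 0.0105) not called. With library totals, where all genes split into 610 higher and 278 lower against 399 and 448, 7 cytosolic members were called higher and 0 mitochondrial members lower (3 at an unadjusted p below 0.05 in either direction). Without the 2017 cultures MST1 was not called (adjusted p 0.0104 in edgeR).

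With RPH1 and GIS1 alone deleted no member was called for such a difference, where 0.398% of genes were called in either direction. edgeR and DESeq2 both called 0 of 33, and 1 cytosolic and 2 mitochondrial members were lower at an unadjusted p below 0.05. KRS1 in ΔRph1/Gis1 cells had 24.9, 46.4, 47.4 and 61.9 CPM with 1-NM-PP1 and 1076, 785, 883 and 1175 CPM with DMSO, which overlap the values of cells with no deletion in both treatments. The medians of the difference were 0.15 for cytosolic and -0.22 for mitochondrial members.

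**Figure D5:**
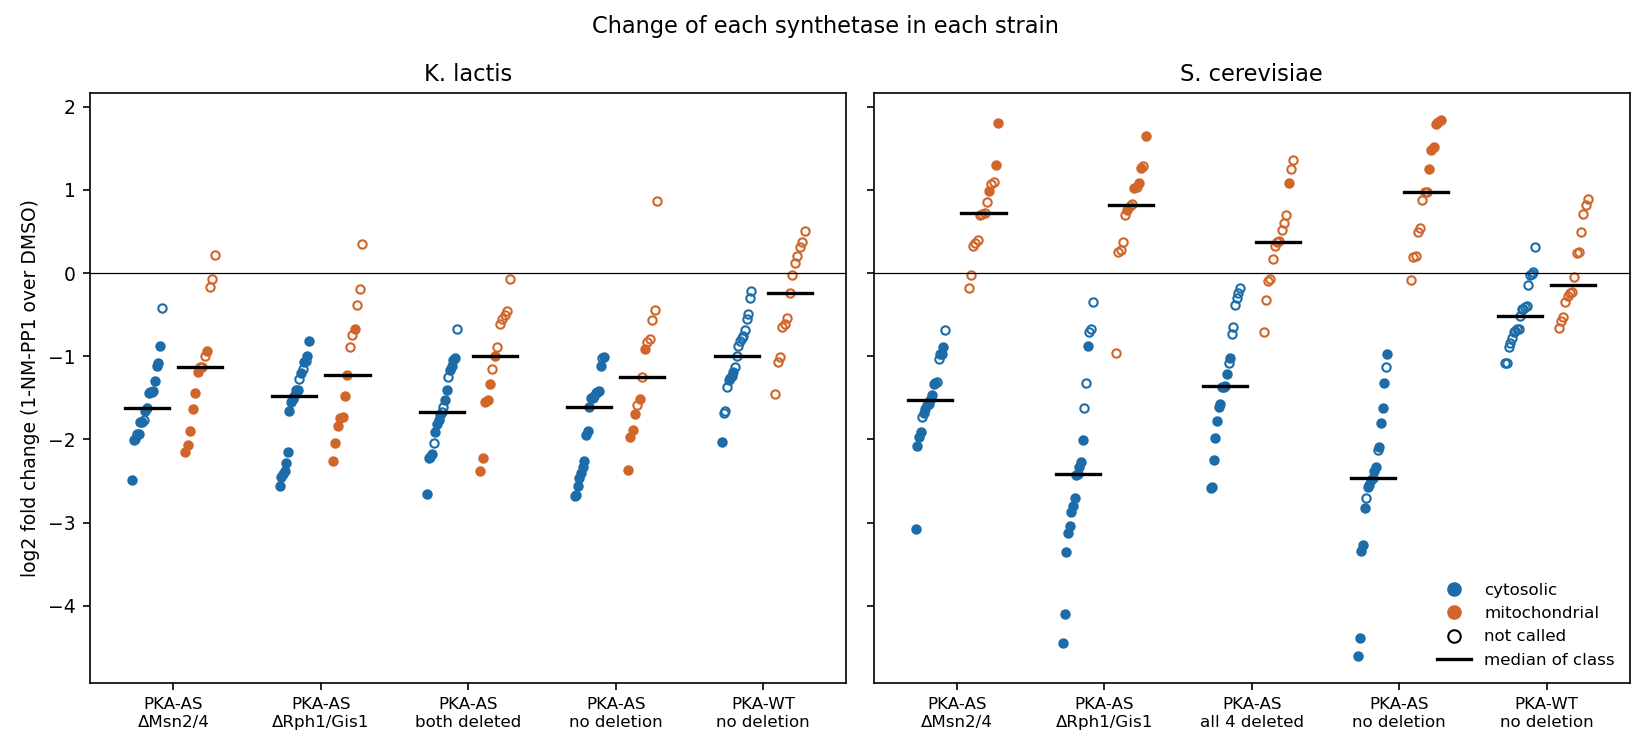
LFC with 1-NM-PP1 over DMSO of each cytosolic (blue) and mitochondrial (orange) synthetase in each strain, *K. lactis* left and *S. cerevisiae* right, filled where called and open where not, with the class median as a bar. In *S. cerevisiae* the cytosolic medians were -1.52 and -1.36 in the strains without Msn2/4 and without all 4 factors and -2.41 and -2.46 in ΔRph1/Gis1 and undeleted cells. The median absolute LFC of all genes was 0.61, 0.64, 1.00 and 1.02 in the same order. The *K. lactis* PKA-AS medians lay between -1.67 and -1.48.

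Without the compound the strains did not differ in any called member. In DMSO no member was called in a deletion strain against no deletion in *K. lactis* (0%, 1.82% and 1.57% of genes called in ΔMsn2/4, ΔRph1/Gis1 and both-deleted cells) or in *S. cerevisiae* (0.0692%, 1.25% and 0.917% with all 4 deleted). In each of these 6 tests 0 to 2 members of a class had an unadjusted p below 0.05, and DESeq2 called 0. Between PKA-AS and PKA-WT cells in DMSO edgeR called 0 genes in either species (0% of genes in each), with 184 lower and 81 higher at an unadjusted p below 0.05 in *K. lactis* and 125 and 97 in *S. cerevisiae*. DESeq2 called 2 genes lower and 1 higher in *K. lactis* and 2 lower in *S. cerevisiae*. Of the members 1 in *K. lactis* and 0 in *S. cerevisiae* had an unadjusted p below 0.05, and DESeq2 called 0 members.

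Genes that work beside the synthetases were described from lists of their own. Of the synthetase partners, ARC1, which binds the methionyl and glutamyl enzymes, had an LFC of -0.73 in *K. lactis*, called lower, and -0.73 in *S. cerevisiae*, not called. CRS1, the cysteinyl enzyme of both compartments, fell by LFCs of -1.04 in *K. lactis* and -2.88 in *S. cerevisiae*, and GRS2, the second glycyl gene of *S. cerevisiae*, rose by an LFC of 1.44, its *K. lactis* ortholog being the gene counted above as GRS1. Of 4 genes of the mitochondrial glutaminyl-tRNA amidotransferase and methionyl-tRNA formyltransferase, which finish charged tRNAs, none was called in *K. lactis*, where 24.1% of all genes were called lower and 21.1% higher (HER2 -0.78, FMT1 -0.25, PET112 0.13 and GTF1 0.64, the last the 1 gene at an unadjusted p below 0.05) and 2 rose in *S. cerevisiae*, where 21.2% of genes were called lower and 20.7% higher (PET112 1.79, GTF1 1.74). Of 7 mitochondrial translation factors, 6 fell in *K. lactis*, most of all the elongation factors MEF1 (-4.73) and TUF1 (-4.16), and 3 rose in *S. cerevisiae* (AIM23 1.84, MEF2 1.59, IFM1 1.01). The species difference was called lower in 6 of the 7, against 15.1% of all pairs. Of 71 genes listed by symbol as mitochondrial ribosomal proteins, 69 fell in *K. lactis* (median -2.44, against 24.1% of genes called lower). In *S. cerevisiae* 17 rose (median 0.72), a share near the 20.7% of all genes called higher. The species difference was called lower in 70 of them, against 15.1%.

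The lists of cytoplasmic ribosomal proteins, tRNA processing and the Gcn pathway held more lower than higher calls in both species. Of the cytoplasmic ribosomal protein genes 77 of 77 fell in *K. lactis* (median -5.30) and 131 of 133 in *S. cerevisiae* (median -4.61), where 24.1% and 21.2% of all genes were called lower. Of 11 genes for tRNA end processing and splicing, 7 fell in *K. lactis* and 5 in *S. cerevisiae*, against the same shares, among them LOS1, the tRNA export factor (-3.77 and -3.07), and TRZ1, which trims the 3′ end of the precursor (-2.34 and -3.51). Of 4 genes of the Gcn pathway, which senses uncharged tRNA, 3 fell in *K. lactis*, against 24.1% of genes (GCN1 -2.91, GCN20 -2.24, GCN4 -1.60). In *S. cerevisiae* 2 fell, against 21.2% (GCN20 -1.45, GCN1 -1.12), with GCN4 at -1.56 there and not called. The remaining gene, GCN2, had positive LFCs, 0.99 in *K. lactis* and 0.36 in *S. cerevisiae*, and was not called in either.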

How the data were processed

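The authors prepared QuantSeq 3′ FWD libraries from polyadenylated RNA and aligned them with the Bluebee pipeline (R64 for *S. cerevisiae*, ASM241v1 for *K. lactis*). They deposited raw counts per gene, made with htseq in its intersection-nonempty mode after adding 3′ UTRs to the annotation, which in *K. lactis* were fixed extensions, so a gene whose reads end elsewhere is undercounted. Counts carry no molecular identifiers. The deposited tables of the authors' own comparisons hold fold changes and p-values and were not used, and those of mean expression were used only for gene names and orthologs. 1 *S. cerevisiae* library that the authors marked as dropped was left out, and repeat libraries of a culture were summed, giving 56 and 35 cultures. No 2 libraries were identical.

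Genes were kept if at least 3 cultures had a count of 2 or higher, and were fitted per species with edgeR 4.0.16 (R 4.3.3), TMM scaling and 1 factor for allele, deletion and treatment, over all cultures. The quasi-likelihood test was adjusted by Benjamini-Hochberg over all genes, and calls were made at 0.01. Species were compared in a joint fit of 4807 ortholog pairs (3843 one-to-one), with library sizes from each species' fit. Changes within single cultures used log CPM with a prior count of 2. The fits were tested on simulated counts. DESeq2 1.42.0, other scalings and filters, culture as a block, fewer cultures and each replicate left out were tried as alternatives.

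The members and gene lists were chosen with earlier results of these data known. Values in every culture are given for the 3 lowest and 2 highest LFCs of each class and species, the 3 largest species differences in each direction and the arginyl pair; members called in PKA-WT cells or in a difference between strains are named with their LFC. Ribosomal protein genes were listed by symbol, without RPP1 and MRP8, which are none. The mitochondrial list still held YMR31, which is no ribosomal protein either. The members given by culture in deletion strains and PKA-WT cells were chosen after their values were seen. Same-numbered cultures came from dividing 1 culture per the labels, and their deviations from group means correlated at a median of 0.484 in *K. lactis* (17 pairs, 13 over 0.1, -0.329 to 0.708; 4706 genes) and 0.516 in *S. cerevisiae* (28 pairs, 24 over 0.1, -0.237 to 0.835; 4869 genes). Promoters were read with Python 3.11.15 from the R64 genome of RefSeq; *K. lactis* promoters were not analysed here.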

Additional observations from a re-analysis of the deposited data

Results flagged for a closer look

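GUS1 in the *S. cerevisiae* PKA-AS cultures with DMSO and no deletion had one value far from the rest, 926 CPM in culture 2 against 528 to 574 CPM in the other 3. It was the 1 flag among 66 groups checked, of which chance alone flags about 1 in 20.

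The effect of 1-NM-PP1 differed between *K. lactis* and *S. cerevisiae* by the test of the difference itself in 11 members: MSF1 (-4.15), DIA4 (-3.81), MST1 (-3.07), MSY1 (-2.86), SLM5 (-2.68), AIM10 (-2.40), NAM2 (-2.40), MSK1 (-2.05), MSR1 (-1.62), THS1 (1.53) and YHR020W (1.71), as *K. lactis* minus *S. cerevisiae* on the log2 scale. THS1 and YHR020W, the cytosolic members among these, made up a share of their class near that of all pairs called higher.

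It differed between *S. cerevisiae* ΔMsn2/4 and undeleted PKA-AS cells in KRS1 (2.52), FRS2 (1.21), CDC60 (1.16), WRS1 (1.14) and MSK1 (-1.27). It differed between cells with all 4 factors deleted and undeleted cells in KRS1 (3.23), YHR020W (1.81), ILS1 (1.36), WRS1 (1.25), FRS2 (1.08), MSF1 (-2.12) and MST1 (-1.44). Between PKA-AS and PKA-WT cells of *S. cerevisiae* it differed in 12 cytosolic members, lower in PKA-AS, and 2 mitochondrial members, higher in PKA-AS, and in *K. lactis* in 1 cytosolic member, lower in PKA-AS.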

How the results depend on the processing

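No called result changed sign under any alternative. Of the counts and class medians, 483 of 506 values under other settings stayed within 1.5 times the main count or within the spread between cultures, as did 637 of 654 with single replicates left out. In *K. lactis* PKA-WT cells the 4 cytosolic members called lower became 7 with DESeq2, 1 with library totals and 0 with only the compared groups (1 to 4 with replicates left out), and mitochondrial members called lower 1 with DESeq2 and with its size factors (0 to 1). The mitochondrial member called higher in *K. lactis* PKA-AS cells appeared with the replicate block (1) and without treated culture 2017 or control culture 3 (0 to 1). For PKA-AS minus PKA-WT the *K. lactis* cytosolic count of 1 was 2 with the block and 0 with only the compared groups (0 to 3; mitochondrial 0 to 1), and the *S. cerevisiae* mitochondrial count of 2 was 5 with the block. For the species difference the cytosolic count of 2 was 4 with joint TMM, 4 with the block and 1 without the 2017 cultures (1 to 3). Beside these and the counts given in the report, the block moved no count by over 1.5 times. Library totals moved the *S. cerevisiae* medians to -1.01 and 1.199 (cytosolic and mitochondrial, ΔMsn2/4) and -0.96 and 0.76 (all 4 deleted), and those of the differences from no deletion to 1.34 and 0.12, and 1.36 and -0.23. With replicates left out the ΔMsn2/4 medians ran from -1.67 to -1.38 and 0.51 to 0.81, the cytosolic median with all 4 deleted from -1.37 to -1.18 and the *K. lactis* both-deleted mitochondrial median from -1.30 to -0.81. Without the cultures numbered 1, an alternative chosen after seeing the data, the *S. cerevisiae* cytosolic medians were -1.27 (ΔMsn2/4) and -1.22 (all 4 deleted), and that of the ΔRph1/Gis1 difference was 0.36. The causes were not tested.

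Calls lost on leaving out single cultures, beside those named in the report, were in *K. lactis* TYS1 (lost in 5 of 8 cases, highest adjusted p 0.026), SES1 (2 of 8, 0.0109), AIM10 (2 of 8, 0.0134) and the arginyl gene (4 of 8, 0.029), in *K. lactis* PKA-WT cells MES1 (lost in 4 of 5 cases, 0.0317), CDC60 (3 of 5, 0.071) and ILS1 (3 of 5, 0.210, LFC -0.79 without control culture 1), in *S. cerevisiae* HTS1 and DIA4 (2 of 8 each, 0.0128 and 0.0167), and in the species difference THS1 (1 of 16, 0.0105) and MSR1 (4 of 16, 0.0121), all by edgeR. Of the *S. cerevisiae* strain differences, leaving out 1 of 16 cultures at a time lost the call of WRS1 in 10 cases and MSK1 in 8 (ΔMsn2/4; highest adjusted p 0.0284 and 0.0153), and of ILS1 in 7 and MSF1 in 4 (all 4 deleted; 0.0149 and 0.0122). Of the *S. cerevisiae* PKA-AS minus PKA-WT differences, that of GLN4 was lost in 4 of 14 cases (PKA-AS treated culture 2017 or control culture 3, PKA-WT treated culture 1 or control culture 2; 0.0183), YDR341C in 2 (PKA-WT treated culture 1 or control culture 2; 0.0237) and DED81 in 1 (PKA-WT treated culture 2; 0.0194, and 0.0101 with only the compared groups). Depth limits the scarce transcripts most, such as MSF1 and DIA4 in treated *K. lactis* cells.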
